A study of Mus musculus with 18 samples.

Results

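Mouse chromosome 13 was followed along its length in C3H/10T1/2 cells, a mouse mesenchymal progenitor cell (MPC) line, with and without intact *Atrx*. The 930 genes described are those of the 24100 Entrez genes counted in both tables that the mm10 annotation places on chromosome 13, and 773 of them are protein coding. The chromosome was chosen by its own RNA levels, because its genes differed as a block between the 2 knockout lines in these libraries. Its median and window values are therefore given as descriptions without a test.

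ATRX is a chromatin remodeller that works with DAXX to deposit histone H3.3 in heterochromatin, and its loss is common in sarcomas. The *Atrx* WT line was the isogenic line that had received the empty Cas9 vector, and the 2 knockout (KO) lines, sg5 and sg6, were each a single clone made with a different sgRNA, clone G7 for sg5 and clone B10 for sg6. Each line gave 3 polyA libraries and 3 rRNA-depleted libraries, 18 in all, and the polyA and rRNA-depleted sets were prepared at separate facilities. Replicates were not stated to be separate cultures, so p-values measure the spread between libraries of a line. What separates a clone from WT besides *Atrx* enters each of these values.

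RNA from a chromosome follows the number of its copies for most genes, because few genes compensate for an added or missing copy. A gain or loss of a whole chromosome therefore tends to move most of its genes by a similar small amount. A regulatory change often moves single genes or neighbouring clusters by larger amounts. Clones of a cultured line can differ in chromosome copy number. The DNA copy number of these lines was not measured in the data used here, and the cause of the differences below was not tested.

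The polyA libraries held 27544833 to 80772108 counts for WT, 161036799 to 235346363 for sg5 and 58918732 to 71896907 for sg6. The rRNA-depleted libraries held 20135336 to 33187136 counts. *Atrx*, on chromosome X, averaged 300.3 CPM, the count scaled to library size, in WT, 127 CPM in sg5 and 131 CPM in sg6 in polyA libraries, and 215, 82.1 and 86.6 CPM in rRNA-depleted libraries. Mesenchymal markers were present in all 3 lines, from *Twist2* at 3.14 CPM or more to *Col1a1* at up to 8950 CPM in polyA libraries, except that *Thy1* averaged 0.997 CPM in WT, 0.307 CPM in sg5 and 134 CPM in sg6. Of the markers of other cell types, *Epcam*, *Krt18*, *Ptprc*, *Cd3e* and *Plin1* reached at most 0.115 CPM in any library, and *Krt8*, *Pecam1*, *Cdh5* and *Kdr* at most 0.445 CPM. Epithelial *Cdh1* reached 4.82 CPM and haematopoietic *Cd68* 5.09 CPM. Of the fat cell markers, *Adipoq* averaged 0.05 CPM for WT, 0.627 CPM for sg5 and 0.0881 CPM for sg6 in polyA libraries, and *Fabp4* averaged 0.736 CPM, 6.83 CPM and 2.52 CPM. Their part in the results was not tested.

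Expressed genes were those that passed the filter on low counts. On chromosome 13, 593 genes passed in polyA libraries, 527 in rRNA-depleted libraries and 495 in both, 467 of these protein coding. A further 305 genes passed in neither, and 117 genes had 0 counts in all libraries. The 495 genes were compared with 11994 genes of the other autosomes that passed in both kinds of library.

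Chromosome 13 RNA was higher in sg6 and slightly lower in sg5 than in WT, and sg5 and sg6 lay on opposite sides of WT in both kinds of library. Values are log2 differences of CPM, taken as the median over chromosome 13 genes minus the median over genes of the other autosomes. In the polyA libraries, each library set against the mean of the WT libraries gave -0.037, 0.024 and 0.016 for WT, -0.081, -0.044 and -0.079 for sg5, and 0.28, 0.26 and 0.28 for sg6. Every sg6 library lay above every WT library, and every sg5 library lay below every WT library. In the rRNA-depleted libraries, the same values were -0.0046, -0.0063 and 0.024 for WT, -0.16, -0.16 and -0.10 for sg5, and 0.16, 0.21 and 0.17 for sg6. The 3 lines did not overlap there either.

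Between group means, the polyA chromosome 13 median was 0.26 higher in sg6 than in WT, 0.065 lower in sg5 than in WT and 0.34 lower in sg5 than in sg6. The spread of library medians within a line, pooled over the 2 lines compared, was 0.025, 0.028 and 0.017 (SD, n = 3 libraries per line). On a linear scale sg6 was at 1.198 times WT and sg5 at 0.790 times sg6. In the rRNA-depleted libraries the differences were 0.16, -0.13 and -0.31, with pooled SDs of 0.021, 0.027 and 0.029, and sg5 was at 0.808 times sg6. The difference between the clones was thus similar in size in both kinds of library, while WT lay closer to sg5 in polyA libraries and nearer the middle in rRNA-depleted libraries.

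**Figure D1:**
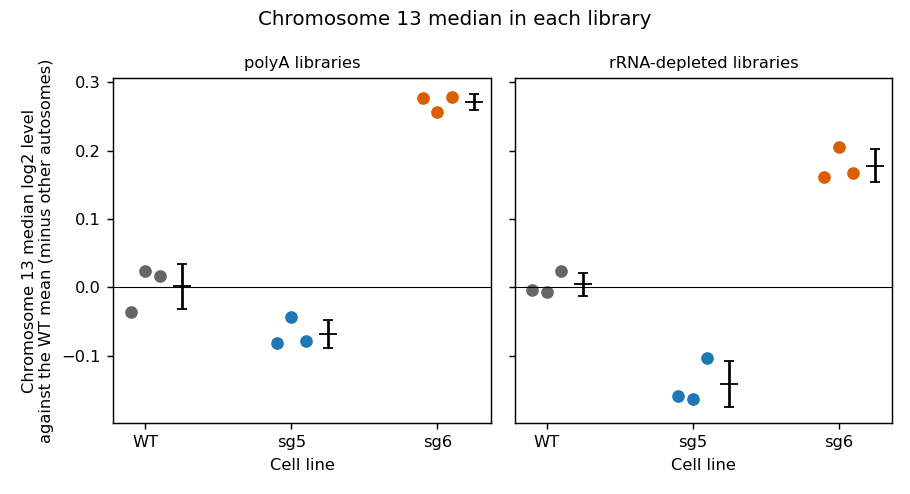
Median log2 level of 495 chromosome 13 genes in each library against the mean of the WT libraries, minus the same median over other autosomes (y axis), by line (x axis) and kind of library. Points are libraries and the bar beside them is the mean ± SD (n = 3). All sg6 libraries sit above all WT libraries and all sg5 libraries below them.

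The share of autosomal gene counts that came from chromosome 13 followed the same order once histone genes were set aside. It was 2.72% ± 0.080 in WT, 2.60% ± 0.018 in sg5 and 3.15% ± 0.072 in sg6 for polyA (SD, n = 3), and 2.96% ± 0.097, 2.79% ± 0.14 and 3.36% ± 0.12 for the rRNA-depleted set. With histone genes included, the rRNA-depleted shares ran from 5.93% to 6.58% in WT, from 4.46% to 5.45% in sg5 and from 5.41% to 6.35% in sg6, so that sg6 no longer exceeded WT. Chromosome 13 carries the main cluster of replication-dependent histone genes, whose mRNAs end in a stem-loop in place of a poly(A) tail and are thus mostly missing from polyA libraries.

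Single genes moved by a narrow amount around the chromosome's median. In sg5 versus sg6 in polyA libraries, the middle 50 percent of chromosome 13 genes lay between -0.46 and -0.24, a width of 0.22, and the middle 50 percent of genes of the other autosomes spanned a width of 0.25 around 0. Only 9.90% of chromosome 13 genes lay above the median of the other autosomes in this contrast, and 3.64% lay more than 1 log2 unit below it. In sg6 versus WT, 78.4% of chromosome 13 genes lay above the median of the other autosomes and the width was 0.47, against 0.51 for the other autosomes. In sg5 versus WT, 38.0% lay above and the width was 0.38 against 0.49. In the rRNA-depleted libraries, the shares above the median of the other autosomes were 15.4% for sg5 versus sg6, 70.1% for sg6 versus WT and 32.5% for sg5 versus WT. For sg5 versus WT the lower tail was not displaced, since the 10th percentile was -0.61 on chromosome 13 and -0.60 on the other autosomes in polyA libraries, and -0.73 and -0.75 in rRNA-depleted libraries.

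**Figure D2:**
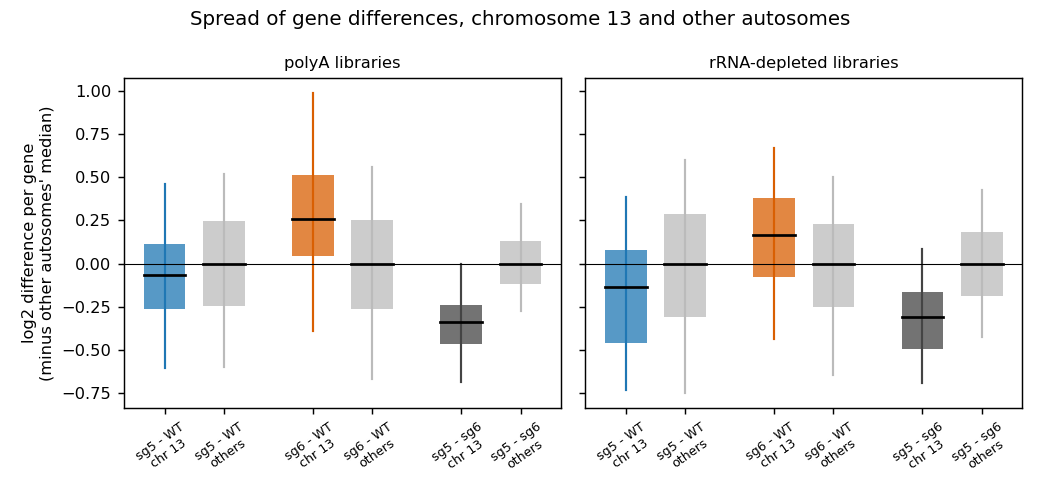
Log2 difference per gene after the median of the other autosomes was taken off (y axis), for chromosome 13 (colour, n = 495 genes) and other autosomes (grey, n = 11994 genes). Boxes span the quartiles, lines the 10th to 90th percentiles and black bars the median. For sg5 minus sg6 the whole box of chromosome 13 lies below 0, from -0.46 to -0.24 in polyA libraries.

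The difference between the clones was similar in genes of low, middle and high expression. In 3 classes of average expression set over all expressed genes, the chromosome 13 difference between sg5 and sg6 was -0.34, -0.34 and -0.34 in polyA libraries and -0.34, -0.30 and -0.31 in rRNA-depleted libraries, from low to high. In 3 classes of gene length it was -0.37, -0.32 and -0.37 in polyA libraries and -0.29, -0.31 and -0.34 in rRNA-depleted libraries, from short to long. Against WT the classes were less alike in rRNA-depleted libraries, with -0.26, -0.13 and -0.13 by expression for sg5 and 0.088, 0.17 and 0.22 by gene length for sg6. The 23 lncRNA genes gave -0.35 and -0.36 between the clones. In sg6 versus WT the lncRNA genes gave 0.019 in polyA and -0.027 in rRNA-depleted libraries, apart from the 0.27 and 0.17 of the protein-coding genes.

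The displacement ran along the chromosome from end to end. The 495 genes were ordered by start and cut into 10 windows, 9 of 50 genes and a last window of 45, from chr13:3478232-21372302 to chr13:106794439-120308843. In sg5 versus sg6, all 10 windows were negative in both kinds of library, from -0.67 to -0.28 in polyA and from -0.40 to -0.24 in rRNA-depleted libraries. Windows cut the same way on the other autosomes numbered 240, with a lowest polyA value of -0.20 and a lowest rRNA-depleted value of -0.38, both on chromosome 11. All 10 chromosome 13 windows thus lay below every other polyA window, and in rRNA-depleted libraries they lay below the 5th percentile of the others, -0.23. Windows share the libraries and are not replicates.

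In sg6 versus WT, 10 of 10 polyA windows and 9 of 10 rRNA-depleted windows were positive. In sg5 versus WT, 8 of 10 polyA windows and 9 of 10 rRNA-depleted windows were negative, and the largest negative value outside window 2 was -0.34, in the last rRNA-depleted window. Outside window 2, the sg6 values ran from 0.10 to 0.45 in polyA and from 0.054 to 0.38 in rRNA-depleted libraries. Most windows against WT lay between the 5th and 95th percentiles of windows on the other autosomes. For sg6, 2 of 10 windows lay above the 95th percentile of the 240 others in each kind, and 1 rRNA-depleted window lay below the 5th. For sg5, 0 polyA windows and 2 rRNA-depleted windows lay below the 5th percentile. In sg6 versus WT, window 3 stood at 0.32 and window 10 at 0.18 in polyA libraries, and at 0.20 and 0.054 in rRNA-depleted libraries. In sg5 versus WT, the same windows stood at -0.047 and -0.13, and at -0.11 and -0.34. The difference between the clones over windows 3 to 10 stayed between -0.40 and -0.28 in polyA and between -0.40 and -0.26 in rRNA-depleted libraries. By library, every sg6 library lay above every sg5 library in all windows except rRNA-depleted window 2. Every sg6 library lay above every WT library except in polyA window 6 and in rRNA-depleted windows 2, 8 and 10.

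**Figure D3:**
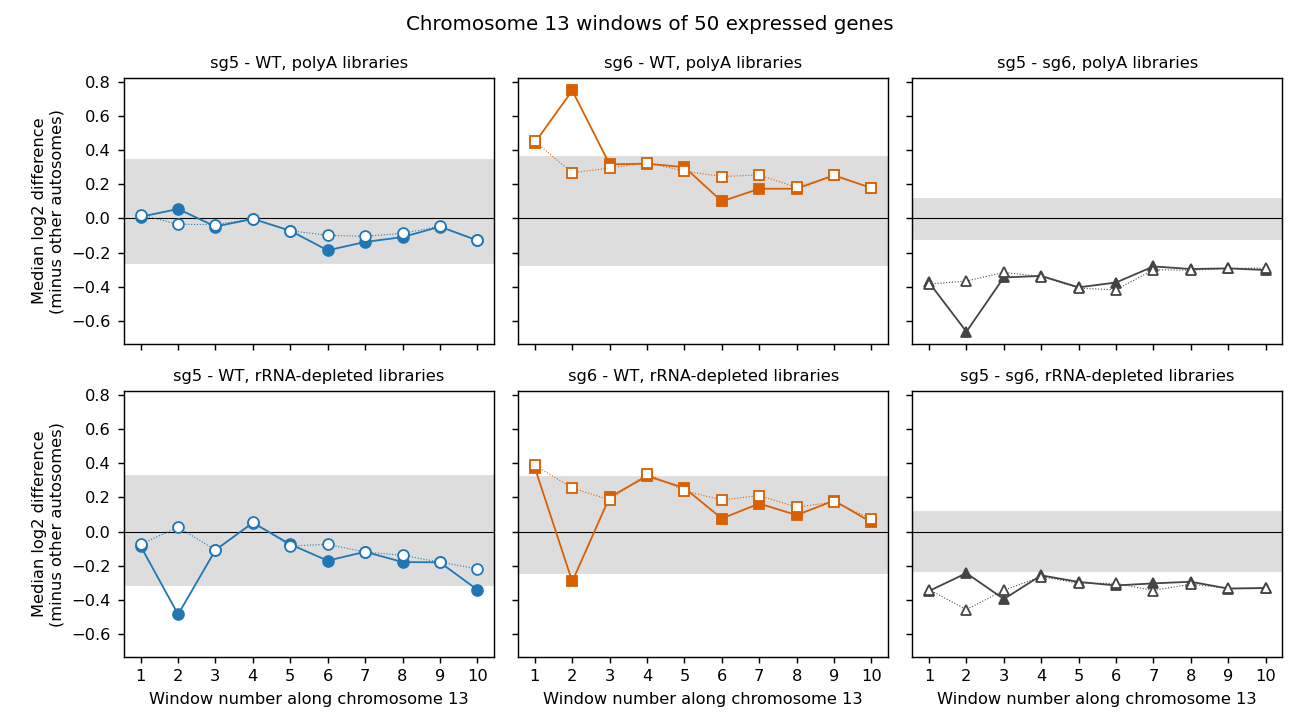
Median log2 difference minus that of the other autosomes (y axis) in 10 windows of expressed genes along chromosome 13 (x axis, window number). Filled symbols use all genes of a window, open symbols leave out copy-rich families and predicted genes, and the grey band spans the 5th to 95th percentile of 240 windows on other autosomes. In sg5 minus sg6 all 10 windows lie below the band, and window 2 stands apart against WT until the copy-rich genes are left out.

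Window 2, chr13:21387004-24937661, held 33 genes of copy-rich families or predicted genes among its 50. In sg6 versus WT it stood at 0.75 in polyA libraries and at -0.29 in rRNA-depleted libraries, and without these genes it stood at 0.27 and 0.26. Between the clones it went from -0.67 to -0.37 in polyA and from -0.24 to -0.46 in rRNA-depleted libraries. Histone genes made up 30 of the genes of this window. The 31 expressed histone genes of the chromosome summed to 56.0 to 79.3 CPM in WT, 68.1 to 95.4 CPM in sg5 and 139 to 187 CPM in sg6 in polyA libraries. Every sg6 library was above every WT and sg5 library. In rRNA-depleted libraries their sums were 15090 to 22450 CPM in WT, 9985 to 16970 CPM in sg5 and 12440 to 19490 CPM in sg6, and the 3 lines overlapped. The median histone gene was 1.08 log2 units higher in sg6 than in WT in polyA libraries and at -0.33 in rRNA-depleted libraries. Opposite signs in the 2 kinds of library set these genes apart from the rest of the chromosome, and histone gene copies share sequence, so their single values are uncertain.

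The most expressed gene of each window shows the sizes in absolute units, and for 6 of the 10 all sg6 polyA libraries were above all others. *Gdi2*, which recycles Rab GTPases, gave 363, 352.5 and 332 CPM in WT, 380.2, 389.9 and 358 CPM in sg5, and 513, 483 and 501 CPM in sg6 in polyA libraries. WT and sg5 overlapped. *Cast*, the calpain inhibitor calpastatin, gave 249, 254.5 and 213 CPM in WT, 201, 233 and 225 CPM in sg5, and 310.5, 325.5 and 319 CPM in sg6. *Erbin*, an ERBB2-binding scaffold, gave 288, 312 and 323 CPM in WT, 369, 350.1 and 348 CPM in sg5, and 439.9, 409.8 and 411 CPM in sg6. The lines did not overlap for *Erbin*, which was also higher in sg5 than in WT. *Rps23*, a ribosomal protein gene, averaged 590.0 CPM in WT, 606 CPM in sg5 and 816 CPM in sg6, with 36.3% of its 31-base words also found in other genes, which makes its level uncertain.

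Most other window leaders departed from the median in some contrasts. *Hnrnpk*, an RNA-binding protein gene, averaged 629 CPM in WT, 668 CPM in sg5 and 673 CPM in sg6, and *Hmgcs1*, of cholesterol synthesis, averaged 422, 509.8 and 509 CPM. *Gas1*, a Hedgehog co-receptor gene, averaged 967.5 CPM in WT, 653 CPM in sg5 and 862 CPM in sg6. *Serpinb6a*, a serine protease inhibitor gene, stood beyond the chromosome in sg6, at 290.0, 317 and 261 CPM in WT, 281.5, 403.5 and 399 CPM in sg5, and 579, 647.5 and 702 CPM in sg6. In the edgeR fit that takes out the chromosome's own shift, described below, it was 0.87 ± 0.148 log2 units higher in sg6 than in WT (SE, adjusted p = 0.00279). *Ogn*, the matrix proteoglycan osteoglycin, averaged 471 CPM in WT, 914 CPM in sg5 and 813 CPM in sg6. *BC005537* was nearer the chromosome's pattern, at 168 CPM in WT, 169.9 CPM in sg5 and 218 CPM in sg6.

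Gene by gene, sg6 libraries were compared with those of sg5 and with those of WT, each apart. These contrasts chose the chromosome, so the shares are descriptions and nothing is read from them. Every polyA sg6 library was above every sg5 library for 329 of the 495 genes, 66.5%, beside 14.7% of all 12923 expressed genes. In rRNA-depleted libraries this held for 188 genes, 38.0%, beside 9.26%. Both kinds of library showed it for 159 genes, 32.1%, beside 4.85%. Every sg6 library was above every WT library for 257 genes in polyA, 51.9% beside 25.2%, for 176 genes in rRNA-depleted libraries, 35.6% beside 17.3%, and for 155 genes in both kinds, 31.3% beside 13.8%. Every WT library was above every sg5 library for 99 genes in polyA, 20% beside 19.6%, and for 89 genes in rRNA-depleted libraries, 18% beside 15%. The last pair of shares was close to the background, and WT and sg5 overlapped for most single genes.

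Other chromosomes were displaced as well. In polyA libraries, chromosome 12 stood above the same median of the other autosomes by 0.34 in sg5 and by 0.41 in sg6, and chromosome 18 by 0.41 and 0.39, so the clones moved alike. Chromosome 11 was at -0.27 in sg5 and -0.15 in sg6. Between sg5 and sg6, chromosome 13 ranked last of 19 autosomes in both kinds of library. The next were chromosome 15 at -0.12 and chromosome 11 at -0.098 in polyA libraries, and chromosome 11 at -0.23 and chromosome 15 at -0.22 in rRNA-depleted libraries. Against WT, chromosome 13 ranked 4th highest of 19 in sg6 in both kinds, and in sg5 it ranked 13th in polyA and 15th in rRNA-depleted libraries.

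**Figure D4:**
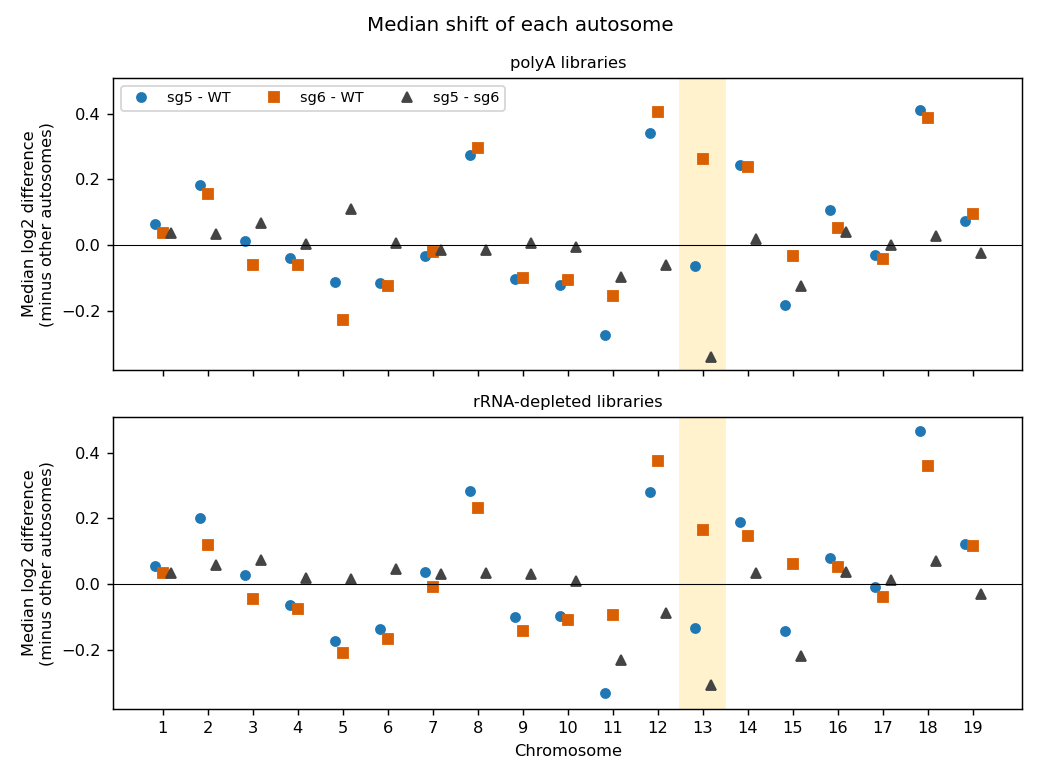
Median log2 difference of each autosome minus that over genes of all autosomes but 13 (y axis) by chromosome (x axis) for sg5 minus WT (circles), sg6 minus WT (squares) and sg5 minus sg6 (triangles). Chromosome 13, shaded, is the lowest triangle in both panels, at -0.34 and -0.31, while chromosomes 12 and 18 have circles and squares close together.

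Counts of changed genes depended on whether the chromosome's displacement was taken out. A gene was called where edgeR's quasi-likelihood test gave an adjusted p (Benjamini-Hochberg) below 0.05 and the log2 fold change exceeded 1 in size. In the polyA libraries, where 593 chromosome 13 genes were tested among 15480, sg5 had 25 higher and 42 lower calls against WT, beside 3.18% and 6.96% of all genes tested. In sg6, 55 were higher and 33 lower, beside 3.64% and 7.54%. In sg5 versus sg6, 3 were higher and 12 lower, beside 1.36% and 1.25%. At the adjusted p alone, 222 chromosome 13 genes were higher in sg6 than in WT, beside 16.1% of all genes tested, and 117 were lower in sg5 than in sg6, beside 2.67%. In rRNA-depleted libraries, with 527 chromosome 13 genes among 56086 genes and transposable element loci tested, sg5 had 11 higher and 21 lower calls against WT, beside 1.19% and 1.86% of all features. In sg6, 16 were higher and 13 lower, beside 0.842% and 1.61%. In sg5 versus sg6, 0 were higher and 10 lower, beside 0.207% and 0.259%. In this last contrast edgeR gave 4 higher at an unadjusted p below 0.05 with the same fold, and DESeq2 called 3 higher. These contrasts chose the chromosome, so nothing is read from these counts.

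The fit was then repeated with each gene measured against the median of its own chromosome in each line, so that a call marks a gene that changed beyond its chromosome. Beyond the chromosome, sg5 had 26 higher and 39 lower genes against WT in polyA libraries, beside 2.62% and 6.88% of all genes tested. In sg6, 36 were higher and 42 lower, beside 3.2% and 7.53%. In sg5 versus sg6, 7 were higher and 7 lower, beside 1.31% and 1.15%. That is 1.18% of the chromosome's genes in each direction, close to the shares of all genes tested. In rRNA-depleted libraries, 11 were higher and 21 lower in sg5, beside 0.934% and 1.75%, 13 were higher and 16 lower in sg6, beside 0.754% and 1.6%, and 2 were higher and 9 lower in sg5 versus sg6, beside 0.198% and 0.257%. Transposable element loci make up most features of the rRNA-depleted fit. Among genes of the other autosomes the shares called there were 2.15% and 3.93% for sg5, 1.86% and 3.49% for sg6, and 0.488% and 0.853% for sg5 versus sg6. At the adjusted p alone, 117 genes were lower in sg5 than in sg6 in polyA libraries without centring, beside 2.67% of all genes tested. With centring 11 were lower, beside 1.78%. Centring takes out the chromosome's median in this same contrast, so fewer lower calls were fixed in advance and nothing is read from the fall.

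Genes that changed beyond the chromosome in both clones numbered 22 higher and 31 lower in polyA libraries, beside 1.77% and 5.32% of all genes tested. Of these, 7 and 10 also passed in both clones in rRNA-depleted libraries, where 0.439% and 1.06% of all features tested passed in both clones. The share of all genes that passed in both kinds of library was not counted, so nothing is read from these counts. The 7 higher genes were *Btn2a2*, *Omd*, *Dapk1*, *Pde8b*, *Arhgef28*, *Foxd1* and *Fst*, and the 10 lower genes were *Akr1c12*, *Akr1c13*, *Elmo1*, *Gm904*, *Mctp1*, *C130071C03Rik*, *Lhfpl2*, *Naip5*, *Naip6* and *Esm1*, all listed because they passed in both kinds, after their values were seen. For the genes named next, changes are log2 fold changes beyond the chromosome's median with their SE, and adjusted p-values come from the same edgeR fit over all features.

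Among genes higher in both clones was *Omd*, osteomodulin, a small leucine-rich proteoglycan of the matrix. *Omd*, at chr13:49582462-49592612, gave 12.3, 16.0 and 11.2 CPM in WT, 73.7, 70.2 and 56.1 CPM in sg5, and 77.8, 76.3 and 69.8 CPM in sg6 in polyA libraries. All KO libraries were above all WT libraries. The change was 2.37 ± 0.152 in sg5 (adjusted p = 1.22e-05) and 2.215 ± 0.151 in sg6 (adjusted p = 1.56e-05), and it was 1.96 and 1.72 in rRNA-depleted libraries (adjusted p = 0.0022 and 0.00642). *Aspn*, asporin, its neighbour at chr13:49544443-49567565, averaged 316 CPM in WT, 909 CPM in sg5 and 1113 CPM in sg6 and was 1.56 and 1.54 higher beyond the chromosome (adjusted p = 0.00678 and 0.00597). In rRNA-depleted libraries *Aspn* passed in sg5 (1.47, adjusted p = 0.0331) and not in sg6 (0.94, adjusted p = 0.253). Their neighbour *Ogn* was at 0.99 in sg5 and 0.51 in sg6 (adjusted p = 0.0312 and 0.21), short of the fold threshold in both, and *Ecm2*, another neighbour, named after its values were seen, was at 0.086 and -0.074 (adjusted p = 0.873 and 0.882).

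*Fst*, follistatin, an activin antagonist, at chr13:114452262-114458989, gave 5.24, 3.60 and 5.16 CPM in WT, 37.1, 20.9 and 14.2 CPM in sg5, and 29.8, 16.1 and 12.2 CPM in sg6, without overlap between KO and WT. Its change was 2.415 ± 0.423 in sg5 (adjusted p = 0.00387) and 1.785 ± 0.417 in sg6 (adjusted p = 0.0138), the latter lost without WT replicate 2 (adjusted p = 0.069). In rRNA-depleted libraries *Fst* was 2.135 and 1.44 higher (adjusted p = 0.00295 and 0.0419), and the sg6 call was lost when any 1 of WT replicates 1 and 3 or sg6 replicates 1 and 2 was left out (adjusted p = 0.102 to 0.222). *Edn1*, the vasoactive peptide endothelin 1, at chr13:42301476-42307990, gave 0.943, 0.892 and 0.623 CPM in WT, 2.08, 5.34 and 4.50 CPM in sg5, and 3.33, 5.78 and 4.28 CPM in sg6. It was 2.32 and 2.17 higher (adjusted p = 0.00269 and 0.00331), but in rRNA-depleted libraries the lines overlapped and the changes of 1.49 and 2.53 did not pass (adjusted p = 0.448 and 0.197). Leaving out 1 rRNA-depleted library each moved these *Edn1* values between 1.03 (without sg5 replicate 2) and 2.48 (without WT replicate 2) in sg5, and between 1.27 (without sg6 replicate 2) and 3.52 (without WT replicate 2) in sg6, where *Edn1* passed without sg6 replicate 1 (adjusted p = 0.02) and in no other fit that left out a library.

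*Serpinb9b*, a gene of the serpin cluster at chr13:33027414-33040588, gave 18.8, 14.4 and 5.54 CPM in WT, 39.8, 90.9 and 55.5 CPM in sg5, and 137, 131.5 and 57.4 CPM in sg6. Libraries of a line spread widely, and KO and WT did not overlap. It was 2.31 ± 0.497 higher in sg5 (adjusted p = 0.0113) and 2.80 higher in sg6 (adjusted p = 0.00387), and only the sg6 change passed in rRNA-depleted libraries (adjusted p = 0.34 and 0.0433), lost without WT replicate 1 or 3 or sg6 replicate 2 or 3 (adjusted p = 0.0632 to 0.235). Exons of *Serpinb9b*, *Edn1*, *Fst* and *Elmo1*, and of the window leaders *Gdi2*, *Serpinb6a*, *Hnrnpk*, *Gas1*, *Cast* and *Hmgcs1*, overlap genes on the opposite strand, and whether counting used strand is not given in the sources used here. *Ripor2*, at chr13:24501524-24733806, gave 1.61, 1.11 and 1.18 CPM in WT, 5.17, 10.8 and 6.62 CPM in sg5, and 7.41, 9.03 and 4.69 CPM in sg6. It was 2.60 and 2.19 higher (adjusted p = 0.00078 and 0.00176) in polyA libraries, and its rRNA-depleted changes of 2.07 and 2.15 did not pass (adjusted p = 0.0902 and 0.091).

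Lower in both clones were members of 2 gene clusters, the *Akr1c* and *Naip* genes. *Akr1c13*, an aldo-keto reductase of steroid metabolism, at chr13:4191168-4205604, gave 24.3, 32.2 and 33.5 CPM in WT, 3.41, 1.94 and 1.63 CPM in sg5, and 1.58, 1.08 and 1.15 CPM in sg6. It fell by 3.66 in sg5 (adjusted p = 4.34e-05) and by 4.84 in sg6 (adjusted p = 1.37e-05), and by 3.52 and 4.55 in rRNA-depleted libraries (adjusted p = 5.58e-06 and 8.77e-07). *Akr1c12* averaged 5.46 CPM in WT, 0.0446 CPM in sg5 and 0.290 CPM in sg6, and *Akr1c21* averaged 0.262, 0.0668 and 0.0923 CPM. Both passed as lower in both clones in polyA libraries. *Akr1c13* shares 33.7% of its 31-base words with *Akr1c12*, so reads of the pair could be split between them.

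*Naip5*, a sensor of bacterial flagellin, at chr13:100211735-100250930, gave 12.3, 19.3 and 23.4 CPM in WT, 1.75, 2.17 and 1.95 CPM in sg5, and 1.26, 1.72 and 1.97 CPM in sg6. It fell by 3.19 in sg5 and by 3.76 in sg6 (adjusted p = 4.42e-05 and 2.03e-05), and *Naip1*, *Naip2* and *Naip6* of the same cluster also passed as lower in both clones. Of the 31-base words of *Naip5*, 52.6% occur in other genes, 36.7% in *Naip6*, and single values of this cluster are uncertain for that reason.

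*Esm1*, endocan, a secreted proteoglycan, at chr13:113209659-113218104, gave 17.3, 26.2 and 32.6 CPM in WT, 1.76, 3.05 and 2.66 CPM in sg5, and 1.73, 5.35 and 5.03 CPM in sg6. It fell by 3.31 and 2.94 (adjusted p = 0.000668 and 0.00111), and in rRNA-depleted libraries it passed in both clones. *Tgfbi*, a matrix protein gene induced by TGF-beta, at chr13:56609586-56639359, gave 111, 207 and 329 CPM in WT, 39.0, 16.9 and 36.1 CPM in sg5, and 8.61, 17.4 and 35.02 CPM in sg6. It fell by 2.78 and 3.69 (adjusted p = 0.00863 and 0.00203) but did not pass in rRNA-depleted libraries (adjusted p = 0.314 and 0.0528), where sg5 and WT overlapped. *Elmo1*, an adaptor for engulfment and migration, at chr13:20090507-20608353, gave 18.9, 21.1 and 21.6 CPM in WT, 4.13, 4.21 and 3.44 CPM in sg5, and 2.62, 2.03 and 2.17 CPM in sg6. It fell by 2.35 and 3.46 (adjusted p = 8.54e-06 and 1.43e-06), and its rRNA-depleted changes of -2.83 and -3.19 also passed.

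**Figure D5:**
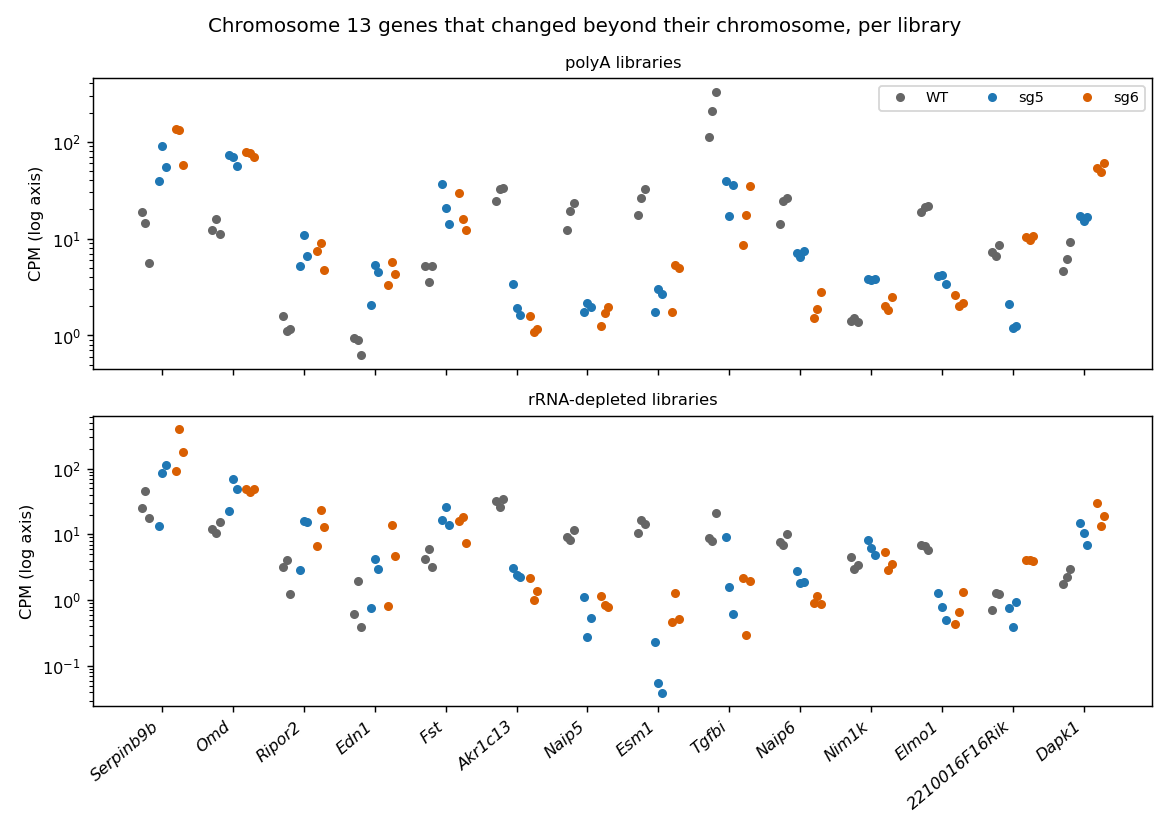
CPM of single genes in each library (y axis, log axis) for WT (grey), sg5 (blue) and sg6 (orange), in polyA (upper) and rRNA-depleted libraries (lower); x axis, gene. In polyA libraries the KO points of *Omd* lie between 56.1 and 77.8 CPM, above the WT points, and those of *Akr1c13* between 1.08 and 3.41 CPM, below them.

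Few genes separated the clones beyond the chromosome's own difference. *Dapk1*, a death-associated kinase, at chr13:60601723-60763191, gave 4.61, 6.09 and 9.18 CPM in WT, 17.1, 15.3 and 16.7 CPM in sg5, and 53.3, 49.2 and 60.7 CPM in sg6. The 3 lines did not overlap, and sg5 was 1.41 lower than sg6 (adjusted p = 0.00416), a difference that did not pass in rRNA-depleted libraries (-0.695, adjusted p = 0.656). Leaving out 1 rRNA-depleted library each moved the latter between -1.01 (without sg5 replicate 1) and -0.33 (without sg6 replicate 1). *2210016F16Rik*, at chr13:58380046-58385225, gave 7.20, 6.59 and 8.56 CPM in WT, 2.13, 1.21 and 1.26 CPM in sg5, and 10.3, 9.64 and 10.7 CPM in sg6. It was 2.42 ± 0.227 lower in sg5 than in sg6 (adjusted p = 0.000305), and 2.26 lower in rRNA-depleted libraries (adjusted p = 0.00794).

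*Naip6*, *Nim1k* and *Elmo1* were on average higher in sg5 than in sg6. *Naip6*, at chr13:100281121-100316616, gave 14.0, 24.2 and 26.3 CPM in WT, 7.17, 6.46 and 7.44 CPM in sg5, and 1.52, 1.90 and 2.79 CPM in sg6, a difference of 2.08 ± 0.274 between the clones (adjusted p = 0.0026). *Nim1k*, a kinase gene at chr13:119710094-119755882, gave 1.40, 1.499 and 1.38 CPM in WT, 3.801, 3.75 and 3.86 CPM in sg5, and 2.01, 1.85 and 2.504 CPM in sg6, a difference of 1.16 (adjusted p = 0.00251). *Elmo1* differed by 1.11 (adjusted p = 0.00205). None of these 3 differences passed in rRNA-depleted libraries (adjusted p = 0.0558, 0.361 and 0.906). Centring enlarges all 3, since it takes out polyA chromosome medians against WT of -0.036 in sg5 and 0.28 in sg6. That displacement is what chose the chromosome. *Nim1k* and *Elmo1*, at 1.16 and 1.11, pass the fold threshold of 1 in polyA libraries only with centring.

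The promoters of the leading gene of each of these sets are shown with their CpG content, which played no part in the choice. Each runs over the 250 bases before a RefSeq start in GRCm38.p6, 5′ to 3′ on the strand of the gene, and capitals mark CG dinucleotides. The *Akr1c13* sequence runs past 4191168, where the gene was placed above, so its last bases lie within that span. They lie at chr13:33027164-33027413 (plus strand), chr13:4190937-4191186 (plus strand), chr13:100316617-100316866 (minus strand) and chr13:58385226-58385475 (minus strand).
Serpinb9b: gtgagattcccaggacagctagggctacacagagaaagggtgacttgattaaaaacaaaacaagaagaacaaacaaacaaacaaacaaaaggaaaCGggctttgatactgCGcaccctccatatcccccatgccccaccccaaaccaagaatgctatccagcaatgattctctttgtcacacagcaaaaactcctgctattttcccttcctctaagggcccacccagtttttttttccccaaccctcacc
Akr1c13: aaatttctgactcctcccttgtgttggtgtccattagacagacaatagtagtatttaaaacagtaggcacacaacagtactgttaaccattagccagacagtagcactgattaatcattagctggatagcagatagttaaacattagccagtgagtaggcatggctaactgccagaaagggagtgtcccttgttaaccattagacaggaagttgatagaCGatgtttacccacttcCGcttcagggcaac
Naip6: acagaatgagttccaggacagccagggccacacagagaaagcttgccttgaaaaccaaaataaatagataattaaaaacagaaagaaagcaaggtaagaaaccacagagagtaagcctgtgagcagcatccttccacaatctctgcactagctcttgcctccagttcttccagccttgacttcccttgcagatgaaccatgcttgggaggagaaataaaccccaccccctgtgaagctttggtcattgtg
2210016F16Rik: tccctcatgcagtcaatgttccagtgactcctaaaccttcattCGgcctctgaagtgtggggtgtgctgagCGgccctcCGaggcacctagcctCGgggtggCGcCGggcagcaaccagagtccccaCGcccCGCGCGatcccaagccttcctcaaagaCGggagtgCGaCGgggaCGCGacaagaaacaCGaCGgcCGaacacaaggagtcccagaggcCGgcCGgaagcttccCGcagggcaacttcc
The first 2 hold 2 CG dinucleotides each, *Naip6* holds 0 and *2210016F16Rik* holds 21. Over the 526 promoters of expressed chromosome 13 genes the median was 15. Genes higher in both clones beyond the chromosome had a median of 8 over 28 promoters and genes lower in both clones a median of 4 over 33 promoters, and over all 32851 promoters in the genome the median was 6. The letters TATAAA, on either strand, occurred in 49 of the 526 promoters of expressed chromosome 13 genes (9.32%) and in 12.4% of all promoters of this length. They occurred in 3 of the 28 promoters of genes higher in both clones (10.7%) and in 7 of the 33 of genes lower in both (21.2%). These small counts were not tested. Genes higher or lower in both clones were called in polyA libraries, whereas the expressed genes passed in both kinds.

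Genes were also grouped by function. Tested genes listed under mitochondria numbered 13 and include genes of respiratory chain subunits and mitochondrial ribosome proteins. Of these 13, 0 passed the fold and the adjusted p beyond the chromosome in any contrast or kind of library in edgeR. Beyond the chromosome at smaller folds, 4 were lower in sg5 and 2 in sg6 against WT in polyA libraries at the adjusted p. The same numbers were lower at an unadjusted p below 0.05. Between the clones, also beyond the chromosome, 1 was lower in sg5 at the adjusted p and 2 at the unadjusted p. Without centring, 4 were lower in sg5 than in WT and 4 were higher in sg6 than in WT at the adjusted p in edgeR. At the fold and the adjusted p, DESeq2 called 0 without centring. All 13 lay lower in sg5 than in sg6 in both kinds of library, with medians of -0.38 and -0.31, beside -0.34 and -0.31 for the whole chromosome, which was chosen by this contrast, and -0.0013 and -0.00058 over all features. *Mrps27*, a mitochondrial ribosome gene, was at -0.40, *Sdha*, a complex II subunit gene, at -0.26 and *Ndufs6*, of complex I, at -0.90 in polyA libraries. *Ndufs6* stood 0.58 below the chromosome's own difference (-0.58, adjusted p = 0.00816), short of the fold threshold. Of 17 tested genes of cell cycle and DNA repair, 16 were below 0 in sg5 versus sg6 in polyA libraries without centring, with a median of -0.25. On the whole chromosome, chosen by this contrast, only 9.90% of expressed genes lay above the median of the other autosomes. Nothing is therefore read from the 16. The only one of the 17 called beyond the chromosome in either clone was *Tert*, lower in both. Over all genes tested, 6.88% were called lower in sg5 and 7.53% in sg6.

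*Tert*, the catalytic subunit of telomerase, had 19, 65 and 35 counts in the WT polyA libraries, 0, 0 and 2 counts in sg5, and 3, 2 and 0 counts in sg6, although the sg5 libraries were the deepest. In CPM this was 0.664 to 0.778 in WT, at most 0.0123 in sg5 and at most 0.0444 in sg6. It passed as lower in both clones (adjusted p = 7.22e-05 and 0.000369) at these low counts, and it did not pass the filter on low counts in rRNA-depleted libraries.

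Of 14 tested genes of matrix and adhesion, 3 rose and 2 fell beyond the chromosome in sg5, and 3 rose and 1 fell in sg6 in polyA libraries. Beside this and the next lists stand the shares called over all genes tested, where sg5 had 2.62% higher and 6.88% lower and sg6 had 3.2% higher and 7.53% lower. *Omd*, *Aspn* and *Serpinb9* rose in both clones, *Tgfbi* fell in both, and *Hapln1*, a hyaluronan link protein gene, fell in sg5 by 2.49 (adjusted p = 0.042). Without centring, the list's median was 0.17 in sg5 and 0.57 in sg6, beside -0.0024 and -0.0061 over all features. These medians include the chromosome's own, which was -0.036 in sg5 and 0.28 in sg6. Beyond the chromosome, of 20 tested developmental regulators, 1 rose and 1 fell in sg5 and 2 rose and 1 fell in sg6. *Fst* rose and *Msx2*, a homeobox gene of bone and limb, fell in both, and *Inhba*, the activin A subunit gene, rose in sg6 by 1.08 (adjusted p = 0.00695).

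Of 18 tested signalling genes, 2 rose and 1 fell in sg5 and 2 rose and 2 fell in sg6. *Edn1* and *Pde8b*, a cAMP phosphodiesterase gene, rose in both clones. *Fgf10*, a growth factor of mesenchyme, fell in both, by 2.41 and 2.35 (adjusted p = 0.00407 and 0.00398), from 80.4 CPM in WT to 14.7 and 19.2 CPM. *Map3k1* fell in sg6 by 1.02 (adjusted p = 0.00396). Of 9 tested genes of sterol and lipid synthesis and related metabolism, 1 rose in each clone, *Gcnt2*, a glycosyltransferase gene, by 1.09 and 1.74 (adjusted p = 0.00826 and 0.000584). Of the matrix genes in rRNA-depleted libraries, 2 rose and 1 fell in sg5 and 1 rose and 2 fell in sg6, with *Omd* up and *Hapln1* down in both clones. Of 17 developmental regulators tested there, 1 rose in sg5, and 1 rose and 1 fell in sg6, where *Fst* rose and *Inhba* did not pass. Of 13 signalling genes, 1 rose and 1 fell in sg5 and 1 rose in sg6, where *Fgf10* and *Map3k1* did not pass. Of 8 sterol and lipid genes, 0 passed in sg5 and 1 rose in sg6. Over all features, 0.934% were higher and 1.75% lower in sg5, and 0.754% and 1.6% in sg6.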

How the data were processed

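RNA was measured in 18 libraries, 3 polyA and 3 rRNA-depleted libraries of each of the *Atrx* WT, sg5 and sg6 lines. The authors deposited expected counts per Entrez gene for polyA libraries, which were whole numbers in the file, and counts per gene and transposable element locus for rRNA-depleted libraries, aligned to mm10. Salmon 0.8.2 is named in the submitters' processing notes. Whether counting used strand is not given in the sources used here. Annotation placed 24045 of 24100 gene IDs.

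Genes were filtered with filterByExpr (minimum count 10, total 15), scaled by TMM, and fitted over all 3 lines with edgeR 4.0.16 quasi-likelihood tests (R 4.3.3, limma 3.58.1) on 15480 polyA and 56086 rRNA-depleted features. Log2 CPM used a prior count of 2. Calls required a log2 fold change beyond 1 and a Benjamini-Hochberg adjusted p below 0.05. A second fit added each chromosome's median difference in each clone as an offset. DESeq2 1.42.0 was an alternative, as were other scaling, filters, window sizes and leaving out each library. Functions were tested on simulated data. Depth per library is given above, and counting error alone does not cover variation between cultures.

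The genes named were the most expressed gene of each window, the 5 genes with the largest smaller change of the pair of clones in each direction beyond the chromosome, and up to 3 genes in each direction between the clones, all at an average log2 CPM of at least 1 without overlap of libraries in polyA and with the same sign in rRNA-depleted libraries. Genes from the fixed lists and neighbouring members of their families were added. The chromosome, the members and the lists were chosen with earlier results of these data known.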

Additional observations from a re-analysis of the deposited data

Results flagged for a closer look

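The chromosome 13 median differed between sg5 and sg6 by -0.339 in polyA and -0.32 in rRNA-depleted libraries, as the difference of the mean library medians in log2 CPM. Every sg5 library lay below the WT mean and every sg6 library above it, and this difference was not tested because it chose the chromosome.

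Single genes differed between the clones by a test of the difference itself, beyond the chromosome's own difference in polyA libraries (edgeR quasi-likelihood test). *Naip6* was 2.08 higher in sg5 than in sg6 on the log2 scale (adjusted p = 0.0026), *Nim1k* 1.16 higher (adjusted p = 0.00251) and *Elmo1* 1.11 higher (adjusted p = 0.00205). *Nim1k* and *Elmo1* passed the fold threshold only with centring, which takes out the difference that chose the chromosome. For *2210016F16Rik* the value was -2.42 (adjusted p = 0.000305) and for *Dapk1* it was -1.41 (adjusted p = 0.00416). Of these 5, only *2210016F16Rik* also passed in rRNA-depleted libraries.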

How the results depend on the processing

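The sign of the chromosome 13 median held under every alternative run, for each contrast and kind of library. Its value moved by more than the spread between libraries with a mean in place of the median (polyA sg5 versus sg6 -0.37, sg6 versus WT 0.31), without the filter on low counts (polyA -0.31 and 0.25, rRNA-depleted sg5 versus sg6 -0.27) and without copy-rich families (rRNA-depleted sg5 -0.096, sg6 0.21). Leaving out 1 library each gave -0.086 to -0.044 for polyA sg5, the last without WT replicate 2, 0.261 to 0.285 for polyA sg6 and 0.159 to 0.195 for rRNA-depleted sg6. Windows on the chromosome's side went to 92.3% in blocks of 10 megabases for sg5 versus sg6 in both kinds and for polyA sg6 versus WT, to 78.6% without the filter for rRNA-depleted sg6 versus WT, and ran from 90% (without sg5 replicate 1) to 100% for rRNA-depleted sg5 versus sg6.

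Counts of calls moved more, and the cause was not tested. With at least 10 counts in every library, polyA calls without centring were 15 higher and 23 lower in sg5, 33 and 17 in sg6, and 7 lower between the clones, and rRNA-depleted calls were 13 lower in sg5 and 9 higher and 6 lower in sg6. Beyond the chromosome that filter gave 16 and 23 in sg5, 21 and 22 in sg6 and 4 lower between the clones in polyA libraries, and in rRNA-depleted libraries 11 lower in sg5, 6 and 8 in sg6, and 0 and 3 between the clones. The adjusted p alone gave 51 and 72 in sg5, 222 higher in sg6, and 6 and 117 between the clones in polyA, and 32 higher in rRNA-depleted sg6. Beyond the chromosome it gave 51 higher in sg5, 83 and 73 in sg6, and 11 and 11 between the clones in polyA libraries. A test against the fold threshold (glmTreat) gave 8 and 21 in sg5, 20 and 20 in sg6, and 1 and 5 between the clones in polyA, and 3 higher in sg5, 5 higher in sg6 and 4 lower between the clones in rRNA-depleted libraries. Without copy-rich families, polyA calls were 16 higher in sg5, 30 higher in sg6 and 7 lower between the clones, and beyond the chromosome 17 higher in each clone. DESeq2 gave 20 lower between the clones in polyA, and 3 higher between the clones and 17 higher in sg5 in rRNA-depleted libraries. No filter gave 3 higher between the clones and 21 higher in sg5 there, 21 also beyond the chromosome, and a fit of only the 2 lines gave 5 lower between the clones. The 2 rRNA-depleted genes higher in sg5 than in sg6 beyond the chromosome became 0 with median-of-ratios factors, and 1 with TMM from other autosomes, with thinned libraries and without copy-rich families.

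Leaving out 1 rRNA-depleted library each gave 0 to 3 higher and 5 to 8 lower between the clones, 7 to 15 higher in sg5 and 8 to 15 higher in sg6 beyond the chromosome. The lowest values came without WT replicate 3 or sg5 replicate 2, among others, for the clones, without WT replicate 2 or 3 for sg5 and without WT replicate 1 or 3 for sg6. Without centring, the ranges were 0 to 2, 6 to 15 and 10 to 22, with 6 and 10 reached without WT replicate 3. *Elmo1* between the clones was 0.36 in rRNA-depleted libraries and ran from -0.10 without sg5 replicate 1 to 0.90 without sg6 replicate 3.

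The labels gave same-numbered libraries of different lines a number in common and do not say what else they shared. Their deviations correlated at 0.0257 to 0.43 in polyA and 0.0554 to 0.268 in rRNA-depleted libraries. The means were 0.26 and 0.121, beside -0.127 and -0.0601 for libraries of different numbers. In polyA 9 of 9 and in rRNA-depleted 8 of 9 libraries correlated best with their own number. The p-values given above come from fits without this pairing. With the replicate number as a block, rRNA-depleted calls went to 17 higher in sg5, 20 lower in sg6 and 1 higher between the clones, and to 18 higher in sg5 beyond the chromosome. Other counts of calls stayed within 1.5 times under the block.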
